A study of Arabidopsis thaliana with 6 samples.

Results

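The 10 plastid-encoded genes of the chloroplast NDH complex that the array reads singly were compared between OsTOP6A1 transgenic and wild type Arabidopsis thaliana seedlings. A probe set, the group of oligonucleotides that reads 1 transcript, was taken as a member when its single annotated gene lay on the chloroplast genome and had a symbol that starts with ndh. This gave 10 of the 22746 probe sets tested, for ndhA, ndhC, ndhD, ndhE, ndhF, ndhG, ndhH, ndhI, ndhJ and ndhK, and a further 59 probe sets read 1 other plastid-encoded gene each. The gene table holds 12 ndh entries on that genome, and the remaining 2 are the copies of ndhB in the inverted repeat, which share a probe set and were not analysed here. Whole light-grown seedlings of the Columbia ecotype, 10 days old, were raised under continuous light on sucrose-containing medium. The OsTOP6A1 transgenic group overexpressed a rice cDNA for a subunit A protein of topoisomerase 6 in this background, and the other group was wild type (WT). Each group had 3 arrays, described as biological replicates. Which promoter drove the transgene, and from how many independent lines the seedlings came, is not stated in the labels, so the comparison holds for these transgenic seedlings.

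The NDH complex sits in the thylakoid membrane and passes electrons from ferredoxin to plastoquinone, which feeds cyclic electron flow around photosystem I and chlororespiration. It resembles respiratory complex I. Its plastid genes encode a membrane arm that pumps protons (NdhA to NdhG) and an arm at the stromal side that carries iron-sulfur clusters (NdhH to NdhK), while many further subunits are encoded in the nucleus. Most of these plastid genes lie in 2 transcription units, one that runs from ndhH through ndhA, ndhI, ndhG, ndhE and psaC to ndhD, and one of ndhC, ndhK and ndhJ, whereas ndhF lies apart. Plastid transcripts are cut and trimmed from long precursors, and poly(A) tails occur on them mainly during decay. The labels do not state which primer was used for labelling, so which plastid RNA molecules were labelled was not tested.

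Of the 10 ndh probe sets, 2 rose in OsTOP6A1 seedlings, those of ndhA and ndhI, and 0 fell (limma, adjusted p of 0.05 or less). Over the whole array 16.5% of probe sets were called by the same rule, 8.18% as higher and 8.31% as lower. At an unadjusted p under 0.05 there were 3 of the 10, with ndhD added, near the share of 30.5% over all probe sets. As a median over the 10 the log2 fold change was -0.03, beside -0.02 over all tested probe sets and -0.18 over the 59 other plastid probe sets. Intensities are in the linear units of the deposited table, and fold changes are OsTOP6A1 minus WT on the log2(intensity + 16) scale.

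The ndhA transcript encodes a membrane subunit that joins the membrane arm to the stromal arm. Its probe set had intensities of 476.2, 440.5 and 424.3 on the OsTOP6A1 arrays, against 173.1, 185.3 and 147.5 on the WT arrays. All OsTOP6A1 arrays lay well above all WT arrays. The means were 447 ± 26.6 in OsTOP6A1 and 169 ± 19.3 in WT seedlings (SD, n = 3 each), a ratio of 2.65. The log2 fold change was 1.33 (SE 0.09, 95% interval 1.11 to 1.55, limma adjusted p = 0.000136).

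The ndhI transcript encodes an iron-sulfur subunit of the stromal arm, and its gene is the direct neighbour of ndhA. Its intensities were 2310.8, 1924.5 and 2147.0 on the OsTOP6A1 arrays, against 1004.1, 1058.7 and 872.3 on the WT arrays. Here too the genotypes did not overlap, and the lowest OsTOP6A1 array stood clear of the highest WT array. The means were 2127 ± 194 in OsTOP6A1 and 978 ± 95.8 in WT seedlings (SD, n = 3 each), a ratio of 2.17. The log2 fold change was 1.11 (SE 0.10, 95% interval 0.88 to 1.34, limma adjusted p = 0.000445). Both calls held in each of the 18 alternatives, with log2 fold changes between 1.14 and 1.51 for ndhA and between 1.03 and 1.29 for ndhI.

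**Figure D1:**
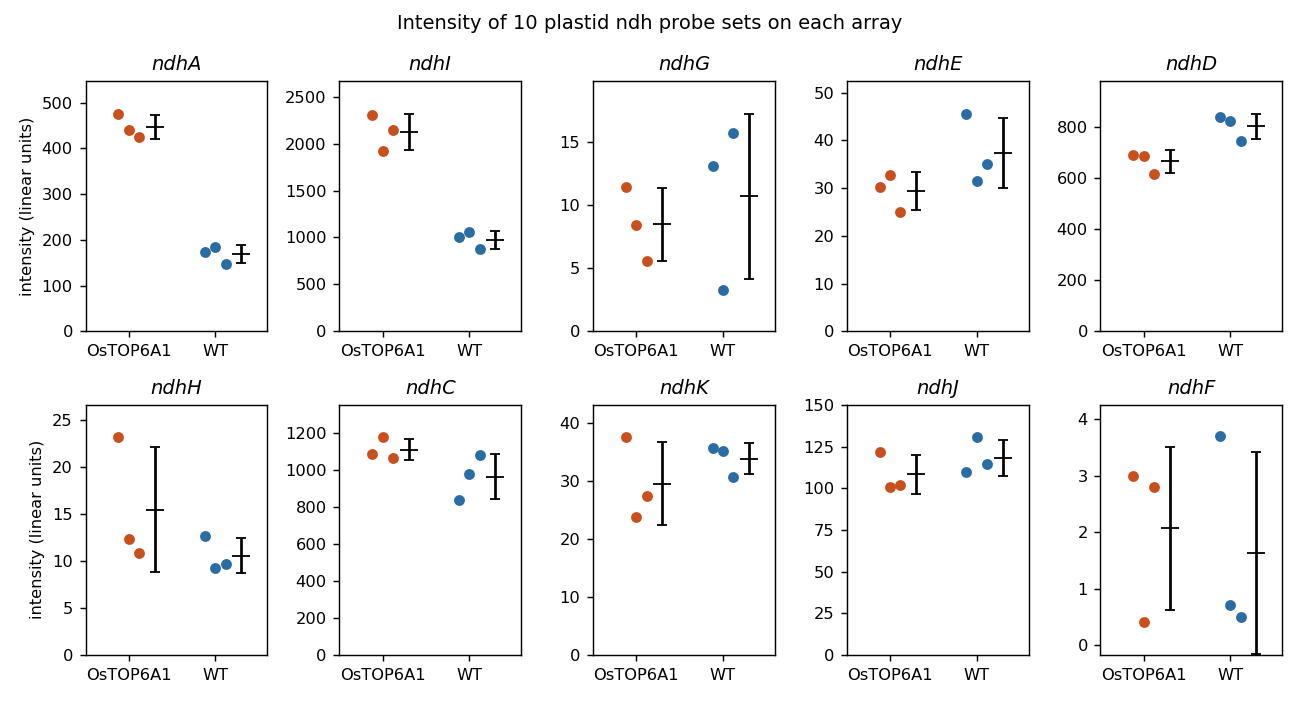
Each panel shows 1 plastid ndh probe set, with the intensity in linear units on the vertical axis, 1 point per array for OsTOP6A1 (orange) and WT (blue), and the mean ± SD (n = 3) as a black bar. The 3 OsTOP6A1 arrays lie above the 3 WT arrays for ndhA and ndhI and below them for ndhD, and the genotypes overlap for the other 7 genes.

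None of the other 4 ndh genes of the same transcription unit passed the threshold, and 3 of them (ndhD, ndhE and ndhG) had fold changes below 0. ndhD, which encodes a large proton-pumping subunit of the membrane arm, had intensities of 693.0, 689.1 and 615.6 on the OsTOP6A1 arrays, against 839.1, 825.1 and 746.3 on the WT arrays. The OsTOP6A1 arrays were all lower, yet the log2 fold change of -0.27 (SE 0.08, 95% interval -0.45 to -0.08) missed the threshold (limma adjusted p = 0.062). Genotypes that do not overlap were common, at 34.9% of all probe sets. The call for ndhD was passed in 6 of the alternatives, among them the variance trend (adjusted p = 0.0359) and quantile normalization (adjusted p = 0.0423), and the value shrank to -0.08 when arrays were centred on the other plastid transcripts. Over all alternatives its adjusted p lay between 0.0301 and 0.628.

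ndhE, a small membrane subunit, had intensities of 30.3, 32.8 and 25.0 on the OsTOP6A1 arrays and of 45.6, 31.4 and 35.0 on the WT arrays. Its genotypes overlapped, and the log2 fold change was -0.23 (95% interval -0.49 to 0.04, limma adjusted p = 0.228). The probe set of ndhG, another membrane subunit, gave 11.4, 8.4 and 5.6 on the OsTOP6A1 arrays and 13.1, 3.3 and 15.7 on the WT arrays. All 6 of these values were 16 or lower, a range in which between 34.9% and 36.0% of all probe sets lay on each array. The 95% interval of the ndhG fold change, from -0.53 to 0.33 on the log2 scale, leaves a change of either sign possible.

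ndhH encodes a large subunit of the stromal arm and is the gene next to ndhA on the other side from ndhI. Its intensities were 23.2, 12.4 and 10.9 on the OsTOP6A1 arrays and 12.7, 9.3 and 9.7 on the WT arrays. OsTOP6A1 replicate 1 was the 1 array of the 6 above 16, and without it the log2 fold change of 0.23 (95% interval -0.11 to 0.56, limma adjusted p = 0.336) fell to 0.06. Whether ndhH changed with its neighbours was therefore not resolved at this signal.

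Of the measured genes outside the ndh family in or beside this cluster, psaC and rps15 fell. psaC, which encodes the subunit of photosystem I that holds its terminal iron-sulfur clusters, lies between ndhE and ndhD. It had intensities of 29.3, 24.1 and 19.3 on the OsTOP6A1 arrays, against 32.6, 36.1 and 39.1 on the WT arrays. Its log2 fold change was -0.37 (limma adjusted p = 0.0461). rps15, a ribosomal protein gene beside ndhH, had intensities of 111.6, 94.6 and 99.5 on the OsTOP6A1 arrays, against 156.2, 158.5 and 119.8 on the WT arrays. Its log2 fold change was -0.44 (limma adjusted p = 0.036). Neither gene overlapped between the genotypes. Both calls were weak. That of psaC was lost in 11 of 17 alternatives, with an adjusted p of up to 0.254, and that of rps15 in 8 of 17, with an adjusted p of up to 0.145. In each case 5 of these left out 1 array. With arrays centred on the other plastid transcripts the values were -0.19 for psaC and -0.26 for rps15. For ccsA, a gene for cytochrome c maturation beside ndhD, the log2 value differed by -0.37 and missed the threshold (limma adjusted p = 0.0542). It passed in 6 of 17 alternatives, with an adjusted p of 0.0245 at the lowest, and was -0.19 (limma adjusted p = 0.284) with plastid centring.

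To ask whether genes of 1 cluster moved by different amounts, each gene was set against the mean log2 value of the other measured genes from rps15 to ndhD on the same array. The difference for ndhA was 1.98, 2.04 and 2.08 on the OsTOP6A1 arrays, against 0.65, 0.88 and 0.56 on the WT arrays, a shift of 1.34 (exact permutation test, 2-sided, p = 0.1). For ndhI it was 4.54, 4.43 and 4.70 on the OsTOP6A1 arrays, against 3.43, 3.64 and 3.35 on the WT arrays, a shift of 1.09 (exact permutation p = 0.1). For ndhD the shift was -0.48 and for ndhE -0.44 (exact permutation p = 0.1 each). For rps15 it was -0.68 and for psaC -0.61 (exact permutation p = 0.1 each). These 4 falls arise in part because ndhA and ndhI are among the genes they were set against. The dim ndhG and ndhH overlapped between the genotypes, with shifts of -0.29 (exact permutation p = 0.4) and 0.08 (exact permutation p = 0.8). With 3 arrays against 3 the smallest p this test allows is 0.10, so it cannot pass a threshold of 0.05. Within an array a common shift of the log2 values cancels in these differences. A common scaling of the intensities does not cancel fully, because a constant was added to each intensity before the log2 step.

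ndhA and ndhI themselves both rose, ndhA by somewhat more. The log2 difference of ndhA from ndhI was -2.21 ± 0.11 in OsTOP6A1 and -2.43 ± 0.013 in WT seedlings (mean ± SD). It was thus higher by 0.22 in OsTOP6A1 (exact permutation p = 0.1, the smallest this test allows). This is small beside the rise of either gene, though the pseudocount narrows it. With a pseudocount of 1 the log2 fold changes were 1.41 for ndhA and 1.12 for ndhI.

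**Figure D2:**
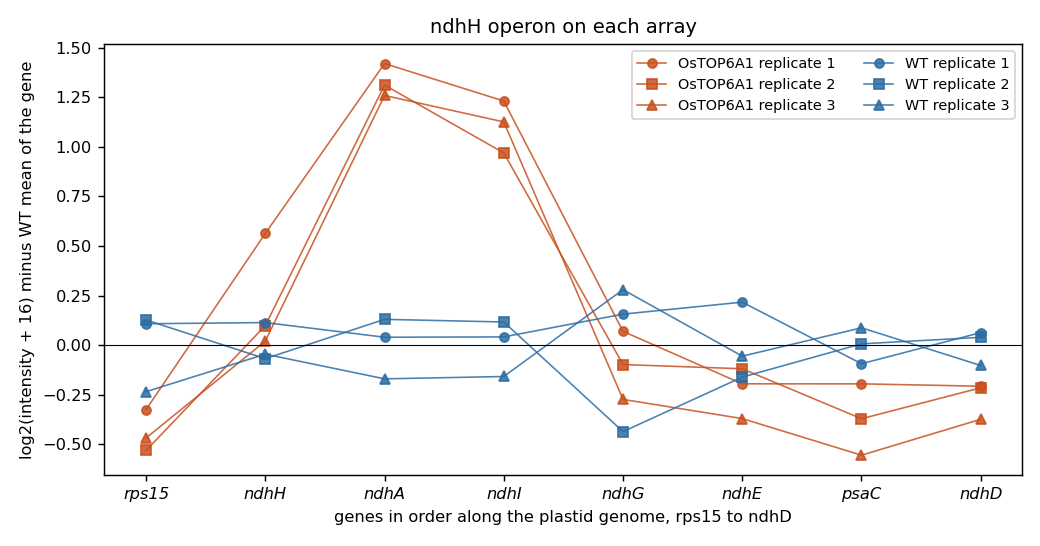
Log2(intensity + 16) of 8 neighbouring plastid genes minus the WT mean of each gene, in their order along the plastid genome, with 1 line per array (OsTOP6A1 orange, WT blue). The OsTOP6A1 lines peak at ndhA and ndhI, the 2 called rises, and lie below the WT lines at rps15, psaC and ndhD, while at ndhH 1 OsTOP6A1 array stands above the other two.

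In the second transcription unit 0 of the 3 genes were called. ndhC, a small membrane subunit and the first gene of the unit, had intensities of 1086.0, 1173.8 and 1063.3 on the OsTOP6A1 arrays, against 833.3, 974.0 and 1078.9 on the WT arrays. One WT array lay within the OsTOP6A1 range, and the log2 fold change was 0.21 (95% interval -0.03 to 0.44, limma adjusted p = 0.221). ndhK, an iron-sulfur subunit of the stromal arm, had intensities of 37.5, 23.7 and 27.4 on the OsTOP6A1 arrays and 35.6, 35.2 and 30.7 on the WT arrays. ndhJ, a further stromal arm subunit, had 121.8, 100.9 and 102.0 on the OsTOP6A1 arrays and 109.5, 130.5 and 114.5 on the WT arrays. Both overlapped between the genotypes, with log2 fold changes of -0.14 for ndhK (95% interval -0.41 to 0.13) and -0.11 for ndhJ (95% interval -0.33 to 0.11). Set against the other 2 genes of the unit, ndhC shifted by 0.33 (exact permutation p = 0.2), with overlap between the genotypes. In the same way ndhK shifted by -0.19 (exact permutation p = 0.4), with overlap. ndhJ shifted by -0.15 without overlap (exact permutation p = 0.1, the smallest this test allows). Both falls arise in part because ndhC is among the genes they were set against. Neighbours outside this unit differed from each other as well: the ribosomal protein gene rps4, next measured beyond ndhJ, fell by 1.01 on the log2 scale (limma adjusted p = 0.000251), whereas atpE, an ATP synthase gene beyond ndhC, had a log2 fold change of 0.07.

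ndhF encodes the proton-pumping subunit at the far end of the membrane arm. Its probe set gave 3.0, 0.4 and 2.8 on the OsTOP6A1 arrays and 3.7, 0.7 and 0.5 on the WT arrays. These values were under 16 on all 6 arrays, so the fold change of 0.04 (95% interval -0.19 to 0.26) is set by the pseudocount and says little of ndhF. Among plastid probe sets with a single annotated gene, the next on either side were those of rps19 and rpl32. They had log2 fold changes of 0.13 (limma adjusted p = 0.557) and 0.03 (limma adjusted p = 0.886). Probe sets without a single annotated gene were not placed along the genome. Of the 10 members, 7 had a mean intensity above 16 over the 6 arrays, and the other 3 were ndhF, ndhG and ndhH.

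Among all 69 plastid probe sets ranked by log2 fold change, ndhA held place 1 and ndhI place 3, with psbK of photosystem II between them. psbK did not pass (limma adjusted p = 0.0579), and after ndhI followed psbI, also of photosystem II, with a log2 fold change of 0.82. Of the 59 other plastid probe sets 3 rose (5.08%) and 12 fell (20.3%), or 25.4% called (9 higher and 7 lower when arrays were centred on their median), and 45.8% of the 59 did not overlap between the genotypes. That count of 15 was 6 without WT replicate 2, OsTOP6A1 replicate 2 or OsTOP6A1 replicate 3, while the ndh count stayed at 2 without any single array. The other ndh genes ranged from place 9 (ndhH) to place 48 (ndhD) of the 69.

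**Figure D3:**
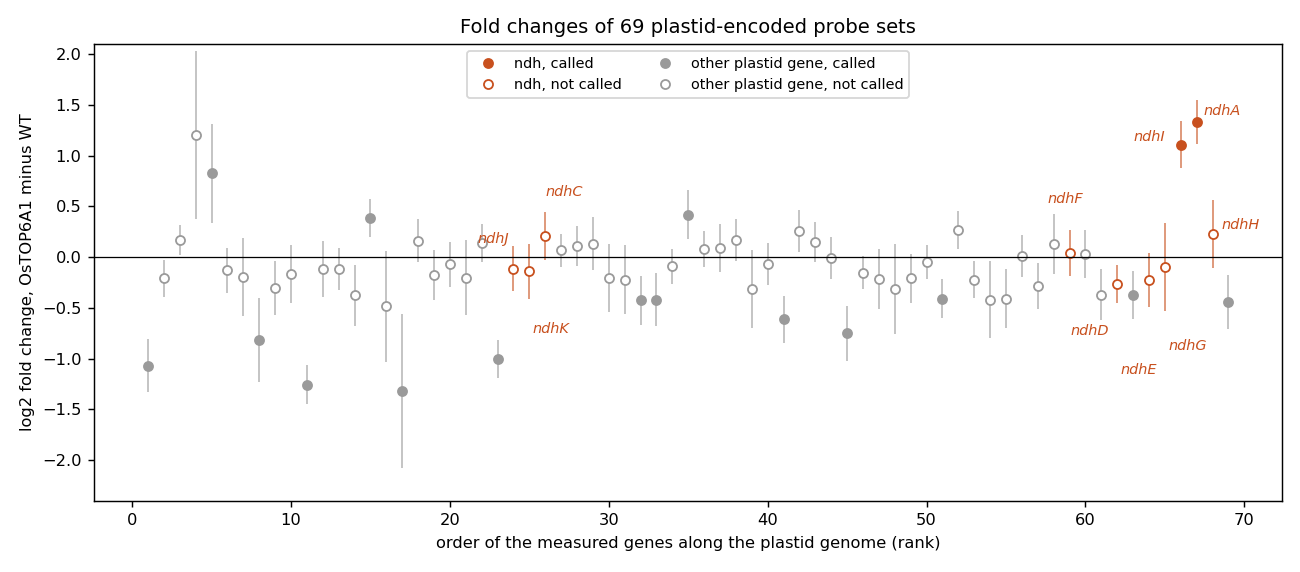
Log2 fold change (OsTOP6A1 minus WT) of 69 plastid-encoded probe sets against their order along the plastid genome, with 95% intervals, ndh genes in orange and the others in grey, filled where called. ndhI and ndhA stand side by side at 1.11 and 1.33 near the right end, between ndhG and ndhH, whose intervals both include 0.

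The ndh genes were also expressed relative to the plastid transcripts outside the family, of which 40 of 59 had a fold change below 0 and 44 were not called. The median log2 value of the 59 was 8.97, 8.78 and 8.73 on the OsTOP6A1 arrays, against 8.99, 9.05 and 8.99 on the WT arrays, so OsTOP6A1 replicate 1 lay close to the WT arrays. Centring on this median moved the median fold change of all probe sets by 0.18, and with it 17.0% of all probe sets were called higher and 2.22% lower. On this scale 4 ndh genes were called higher and 0 lower. The added calls were ndhC, with 0.39 (limma adjusted p = 0.0368), and ndhH, with 0.41 (limma adjusted p = 0.0238). The ndhH probe set was at 16 or lower on 5 of the 6 arrays. Centring shifts such dim values as well: ndhF, under 16 on all 6 arrays, went from 0.04 to 0.22. ndhA reached 1.51 and ndhI 1.29 on this scale. OsTOP6A1 replicate 1 was the highest of the OsTOP6A1 arrays for 8 of the 10 ndh probe sets and for 46 of the 59 others.

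The nuclear partners of the complex were followed through 5 lists of 48 genes, of which 12 had a probe set with 1 gene. 1 of the 12 rose and 2 fell, beside 16.5% called over the array. Among nuclear genes for subunits, 4 of 20 were measured, of which 1 rose and 0 fell. It was AT2G04039, a gene of the subunit list without a name in the gene table, with intensities of 444.5, 377.3 and 394.4 on the OsTOP6A1 arrays, against 255.8, 220.5 and 263.6 on the WT arrays. Its log2 fold change was 0.68 (limma adjusted p = 0.00318), and it kept its call in all 17 alternatives run on it. NdhN, a subunit of the stromal part, had intensities of 217.3, 214.6 and 220.8 on the OsTOP6A1 arrays, against 109.3, 180.8 and 168.6 on the WT arrays. The genotypes did not overlap, but the low WT replicate 1 widened the spread, and the log2 difference of 0.49 missed the threshold (limma adjusted p = 0.0773). Without that array the NdhN difference was 0.29 and passed (limma adjusted p = 0.0365). In all it passed in 4 of 17 alternatives, with the lowest adjusted p under plastid centring (0.68, limma adjusted p = 0.00167). NdhL and NdhS, the remaining measured subunits, differed by 0.16 and 0.05 on the log2 scale, short of the threshold.

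PGRL1B, of the second route of cyclic electron flow, which runs through PGR5 and PGRL1, was the measured gene of its 4-gene list. Its intensities were 98.7, 89.3 and 94.9 on the OsTOP6A1 arrays, against 147.8, 157.7 and 151.9 on the WT arrays. All OsTOP6A1 arrays were lower. The change was -0.61 on the log2 scale (SE 0.07, limma adjusted p = 0.00102), and its call held in all 17 alternatives. Among proteins that process or edit ndh transcripts, 5 of 11 were measured, of which 0 rose and 1 fell. CRR22, a pentatricopeptide repeat protein needed for editing of plastid transcripts including those of ndh genes, had intensities of 11.5, 17.5 and 12.6 on the OsTOP6A1 arrays, against 21.7, 20.9 and 27.3 on the WT arrays. This dim probe set fell by 0.40 on the log2 scale (limma adjusted p = 0.035), a call lost in 9 of 17 alternatives, 5 of them the omission of 1 array, with adjusted p of up to 0.26. CRR21, CRR28, OTP84 and OTP85, further editing factors, lay between -0.10 and 0.02 in log2 fold change, none of them past the threshold. Of the assembly list and the plastid transcription list 1 gene each was measured, Cpn60beta4 of the chaperonin at 0.11 and AT5G15700 at -0.03, and neither passed.

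**Figure D4:**
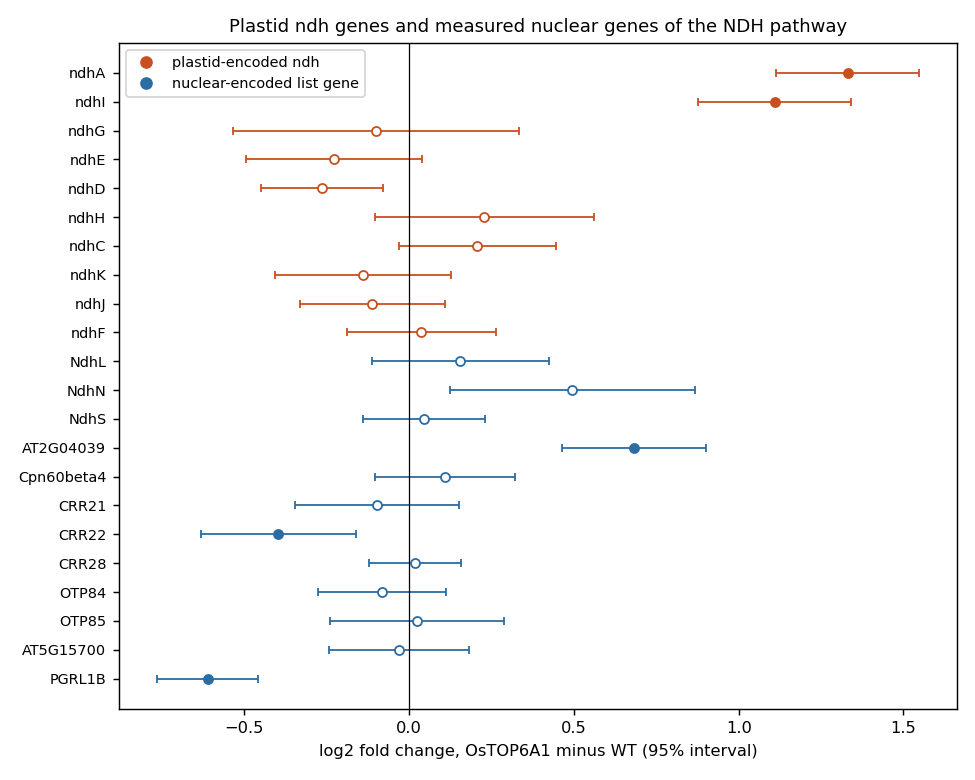
Log2 fold change (OsTOP6A1 minus WT) with its 95% interval for the 10 plastid ndh genes (orange) and the 12 measured nuclear genes of the NDH pathway (blue), filled where called. ndhA, ndhI and AT2G04039 are the called rises at 1.33, 1.11 and 0.68, and CRR22 and PGRL1B the called falls at -0.40 and -0.61.

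By likeness over the 6 arrays, measured as the mean absolute difference of mean-centred log2 values among 13435 other named probe sets, the genes nearest to ndhA were AT2G03980, AT1G33600 and AT3G61010, at 0.061, 0.066 and 0.071. Those nearest to ndhI were AT5G20580, AT1G66100 and AT3G10720, at 0.062, 0.063 and 0.078. For AT3G61010, AT5G20580 and AT1G66100 the WT means of 6.0, 10.3 and 2.73 were under 16, so their likeness is set in part by the pseudocount. All 6 are nuclear genes. None of them was in the NDH lists, whose measured genes had log2 fold changes of 0.68 at most. A list gene could therefore not lie this near to ndhA or ndhI, and its absence here says nothing of the lists. The brightest, AT3G10720, averaged 567 ± 30.5 in OsTOP6A1 and 242 ± 3.61 in WT seedlings (SD, n = 3 each).

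The arrays were alike in overall level, with medians of 37.5 to 38.6 in OsTOP6A1 and 38.0 to 39.3 in WT seedlings. Of 8 green tissue markers 4 were measured, and 3 of these (LHCB4.1, RCA and PSAE-1) had log2 fold changes between 0.07 and 0.12 that did not pass, whereas LHCB4.2 rose by 1.65. Their summed intensity was 12313 to 13484 in OsTOP6A1 and 10005 to 11861 in WT seedlings. Of these 4 only LHCB4.2 did not overlap between the genotypes, with means of 1913 in OsTOP6A1 and 598 in WT seedlings. The gap between the sums is therefore not a trait that the 4 markers share. The sum of 4 root markers was 3845 to 4375 in OsTOP6A1 and 3790 to 4329 in WT seedlings. Fewer cells of a type and less RNA per cell cannot be told apart in whole seedlings. The ratio of the 3′ to the 5′ control probe set, a reading of RNA integrity, overlapped between the genotypes for actin and GAPDH. For actin it was high on every array, at 16.4 to 22.2 in OsTOP6A1 and 17.7 to 20.3 in WT seedlings. For GAPDH it was 1.31 to 1.46 in OsTOP6A1 and 1.36 to 1.44 in WT seedlings. The ubiquitin ratio did not overlap, at 2.44 to 2.99 in OsTOP6A1 and 3.17 to 4.49 in WT seedlings. The part of these differences in the ndh values was not tested.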

How the data were processed

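RNA was extracted with TRIzol and labelled as biotinylated cRNA, per the labels' protocols. The authors deposited 1 linear intensity per probe set and array. The software behind them is not given in the sources used here; every array had a mean of 100.0 after trimming 2% at each end, so they were taken as scaled by the authors and not normalized further. Of 22810 probe sets, 64 controls were left out. Names came from the platform annotation (13513 tested probe sets with 1 gene, 503 with several, 8730 not listed) and the RefSeq gene table of TAIR10.1, used for names and gene order alone. Log2(intensity + 16) was fitted by genotype in limma 3.58.1 (lmFit, eBayes; R 4.3.3), and p-values were adjusted (Benjamini-Hochberg) over all 22746 tested probe sets. The test was checked on simulated arrays. The members, lists and operon test were chosen with earlier results of these data known. All ndh genes, their neighbours and all measured list genes are named, and for each called ndh gene the 3 nearest profiles. Alternatives were other normalizations, pseudocounts of 1 and 64, a filter at 16, a cross-hybridisation filter, variance models, array weights, a replicate block and omission of each array. The limma p-values set the difference between genotypes against the spread between replicate arrays, and hold for these samples.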

Additional observations from a re-analysis of the deposited data

How the results depend on the processing

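The count of 2 ndh genes called was 2 or 3 in every alternative except centring on the other plastid transcripts, where it was 4. Over the whole array the count of 3751 was 1930 without variance moderation and 2143 with a pseudocount of 1, and lay between 2181 and 3433 without single arrays. Of the other plastid probe sets 3 were called without variance moderation, 6 with a pseudocount of 1 and 6 to 14 without single arrays. The shift of ndhA against its operon was 1.1 with a pseudocount of 64, which compresses dim values, and 1.27 to 1.43 without single arrays. Among genes without a call the sign turned as follows, and the cause was not tested. With plastid centring ndhG had 0.0801, ndhJ 0.0688, ndhK 0.0406, CRR21 0.0832, OTP84 0.0986 and AT5G15700 0.15. With array weights rpl32 had -0.0087 and OTP85 -0.00178, and with quantile normalization atpE had -0.00787. Without single arrays the ranges were -0.00888 to 0.119 for ndhF, -0.319 to 0.0392 for ndhG, -0.0807 to 0.0565 for AT5G15700, -0.00139 to 0.0279 for CRR28, -0.0136 to 0.0963 for NdhS, -0.0757 to 0.106 for OTP85 and -0.0274 to 0.136 for rpl32.

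Replicate numbers are shared by the genotypes. The deviations of same-numbered arrays correlated at 0.191, 0.0572 and 0.113, and those of differently numbered arrays at -0.159 to 0.0818. OsTOP6A1 replicate 2 correlated best with WT replicate 3 (0.0818). These values do not settle whether the numbers mark pairs. The main fit took none, and a replicate block was run as an alternative. With a replicate block 3592 probe sets were called over the array and 3 of the ndh genes, the added one being ndhD (-0.27, adjusted p = 0.0472), while psaC (adjusted p = 0.0815) and CRR22 (adjusted p = 0.0548) lost their calls. Precision is limited by 3 arrays a genotype, and for ndhF, ndhG and ndhH by signals near or under 16.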
